A study of Mus musculus with 12 samples.

Results

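The genes described here are the mouse carriers of sugars, inorganic and organic anions, monocarboxylates, nucleosides and organic ions that belong to 9 solute carrier families: Slc2a, Slc5a, Slc13a, Slc16a, Slc22a, Slc26a, Slc28a, Slc29a and Slco. They were chosen by symbol alone, which gave 94 of the 18193 genes on the array, and each gene was represented by its brightest probe set, judged by the mean of all 12 arrays. One of the 94, Slc2a4rg-ps, carries a family prefix but is the pseudogene of a regulator of a glucose carrier and no carrier itself. Slc28a2 and Slc28a2b were on the array only through a probe set listed for several genes and were left out.

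The study grew 2 bipotential mouse embryonic liver (BMEL) lines, 9A1 and 14B3, which are immortal epithelial lines isolated independently of each other from the liver of wild-type embryos at day 14 post coitum, from a cross of CBA/J with C57Bl/6J mice. Each line was kept in basal culture, or as cell aggregates for 1 day or for 5 days, and no drug or genetic change was part of any group. Every combination of line and culture had 2 biological replicates, so each culture is compared over 4 arrays and each line is 1 isolate. RNA was read on Affymetrix mouse oligonucleotide arrays as log2 levels.

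Solute carriers move small polar molecules across membranes that these molecules cannot cross alone. Facilitative carriers such as the Slc2a sugar carriers and the Slc29a nucleoside carriers let their substrate run down its gradient, Slc5a, Slc13a and Slc28a proteins couple uptake to sodium, and Slc26a and many Slc22a and Slco proteins exchange one ion for another. In the liver these families take up and release glucose, carry lactate and ketone bodies, import carnitine, handle sulfate and oxalate, and clear bile acids, prostaglandins, urate and drugs from blood.

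For 5 members on which the results below turn, the 250 bases before a transcript start listed by RefSeq (assembly GRCm38.p6) are printed 5′ to 3′ on the gene's strand, so that the DNA in front of carriers with different time courses can be seen side by side. The windows are chr3:28697653-28697902 on the plus strand for Slc2a2, chr9:108853793-108854042 on the plus strand for Slc26a6, chr10:40142255-40142504 on the minus strand for Slc16a10, chr4:119108495-119108744 on the plus strand for Slc2a1 and chr9:103008237-103008486 on the plus strand for Slco2a1. RefSeq's span of the whole gene reaches further upstream than the listed start for Slco2a1 and Slc16a10, so these windows lie partly or wholly inside the gene span. Capitals mark matches to any of 6 motif strings searched on both strands.
Slc2a2: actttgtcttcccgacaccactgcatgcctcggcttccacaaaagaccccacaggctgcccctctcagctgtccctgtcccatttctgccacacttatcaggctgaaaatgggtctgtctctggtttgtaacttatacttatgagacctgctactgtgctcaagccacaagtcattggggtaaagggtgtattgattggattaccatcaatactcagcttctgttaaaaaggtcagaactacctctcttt
Slc26a6: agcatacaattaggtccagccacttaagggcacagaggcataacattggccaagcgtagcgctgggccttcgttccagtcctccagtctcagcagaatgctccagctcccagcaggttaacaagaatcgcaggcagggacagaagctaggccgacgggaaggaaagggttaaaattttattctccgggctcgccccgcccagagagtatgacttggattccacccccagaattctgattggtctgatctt
Slc16a10: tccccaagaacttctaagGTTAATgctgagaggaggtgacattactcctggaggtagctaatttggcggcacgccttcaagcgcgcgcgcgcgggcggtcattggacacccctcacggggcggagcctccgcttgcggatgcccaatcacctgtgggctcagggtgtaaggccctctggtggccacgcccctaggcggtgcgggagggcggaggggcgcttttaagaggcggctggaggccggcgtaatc
Slc2a1: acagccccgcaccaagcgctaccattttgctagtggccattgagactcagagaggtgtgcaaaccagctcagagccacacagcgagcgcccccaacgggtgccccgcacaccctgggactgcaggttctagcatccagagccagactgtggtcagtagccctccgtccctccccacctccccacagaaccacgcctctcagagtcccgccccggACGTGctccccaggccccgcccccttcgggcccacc
Slco2a1: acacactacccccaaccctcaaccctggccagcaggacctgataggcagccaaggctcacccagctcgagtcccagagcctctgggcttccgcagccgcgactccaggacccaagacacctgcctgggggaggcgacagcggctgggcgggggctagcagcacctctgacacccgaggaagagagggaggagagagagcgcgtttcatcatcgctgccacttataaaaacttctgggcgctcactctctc

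The strings were GTTAAT, which is one arm of the HNF1 site, the full HNF1 site, in which GTTAAT is followed after a single free base by ATTAAC, the HNF4 site, which reads CAAAG and then TCCA, the CDX site TTTATG, the E-box CACGTG, and the hypoxia element core ACGTG, which every E-box contains. The Slc2a2 window had 47.2% G and C and 2 CG dinucleotides, whereas the Slc2a1 window had 66.4% and 13, and the Slc16a10 window 64.4% and 21. The only matches in the printed windows were 1 GTTAAT before Slc16a10 and 1 ACGTG before Slc2a1. RefSeq gave 92 start windows for 76 of the 94 members. GTTAAT was in 7.61% of these against 6.43% of all 32851 windows in the table, TTTATG in 8.70% against 10.8%, CACGTG in 8.70% against 6.02% and ACGTG in 14.1% against 16.6%. The HNF4 site was in 0 of the 92 and in 0.384% of all windows, and the full HNF1 site in 0 of the 92 and in 0.00913%. A match is a description of letters and not a bound site.

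Across the whole series the array medians lay between 6.09 and 6.24. The mean of 5 epithelial markers was between 12.0 and 13.2 over the 12 arrays, although Epcam alone lay at 6.86 to 7.48 on 3 of the 4 basal arrays. The list means were 5.07 to 5.68 for 4 blood, 4.96 to 5.65 for 4 endothelial and 5.54 to 6.01 for 4 stellate markers. Of these 2, 3 and 3 reached 5 on at least 2 arrays and were tested. Ptprc, Tek and Lrat, 1 from each list, lay below 5 on all 12 arrays. At 5 days 1 blood marker fell and none of the endothelial or stellate markers was called. The list means were 5.58 to 6.66 for 5 kidney proximal tubule markers, of which 3 were tested and 1 rose at 5 days, and 7.56 to 9.43 for 3 biliary markers, of which 1 rose and 1 fell. Basal 9A1 replicate 1 stood apart from the other basal arrays: its mean over 5 hepatocyte markers was 12.1 against 7.45 to 8.17, and over 6 gut epithelial markers 9.92 against 6.95 to 7.32. At 5 days these means were 12.2 to 13.4 and 11.0 to 11.4. All 5 tested hepatocyte markers and 5 of 6 gut markers rose against basal culture, where 16.9% of all genes tested did. Day 1 9A1 replicate 2 also stood apart, with values spread over an SD of 2.13 where the 11 remaining arrays had 2.25 to 2.33. It was the highest of the 1 day arrays for 41 of the 81 members tested, 50.6%, and for 33.6% of all genes tested. The part of these markers in the changes of the carriers was not tested, and fits without either array are described with the counts of calls. Since RNA was taken from whole cultures, a larger share of cells with a transcript and more transcript per cell cannot be told apart.

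Of the 94 members, 81 reached a log2 level of 5 on at least 2 arrays and were tested, and the other 13 were not. Of the latter, 10 lay below 5 on every array. The 13 were Slc16a7, Slc22a22, Slc22a27, Slc22a30, Slc2a13, Slc5a12 and 7 of the 15 Slco genes: Slco1a5, Slco1a6, Slco1b2, Slco1c1, Slco4c1, Slco6b1 and Slco6d1. Slco1b2, an uptake carrier of bile acids and drugs in the adult mouse hepatocyte, had levels of 4.38 to 5.21 over the 12 arrays and was at 5 or more on 1 of them. In the families Slc13a, Slc26a, Slc28a and Slc29a every member on the array was tested. Differences below are log2 values with the limma standard error, called at a Benjamini-Hochberg adjusted p under 0.05 over the 15781 genes tested, and the replicates are labelled as biological replicates of the same 2 lines, so the p-values measure the spread within these lines. Levels in a sentence are listed as 9A1 replicates 1 and 2, then 14B3 replicates 1 and 2. Levels of different genes are set against each other only where a member is described as high or highest on the array scale.

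The first question was what had changed after 5 days as aggregates. Against basal culture 21 of the 81 tested members rose and 2 fell, or 28.4%, where 35.4% of all genes tested were called, 16.9% higher and 18.5% lower. The carriers that rose included those for sulfate (Slc13a1), oxalate and bicarbonate (Slc26a6), glucose (Slc2a2, Slc2a1), aromatic amino acids (Slc16a10) and carnitine (Slc22a5), and the 2 that fell were the nucleoside carriers Slc29a1 and Slc29a2. Of the 23 calls 16 were of at least 2-fold. By family, 2 of 5 Slc13a, 4 of 12 Slc16a, 5 of 18 Slc22a, 3 of 10 Slc26a, 3 of 11 Slc2a and 4 of 12 Slc5a genes rose, 2 of 4 Slc29a genes fell, and 0 of 8 Slco genes and 0 of 1 Slc28a genes were called by limma. The median change was 0.10 over the members tested and 0.01 over all genes tested. Slc5a8, Slc22a29 and Slc26a1 reached a level of 5 only on arrays of the 5 day culture, so they entered the test through the culture in which they were high.

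**Figure D1:**
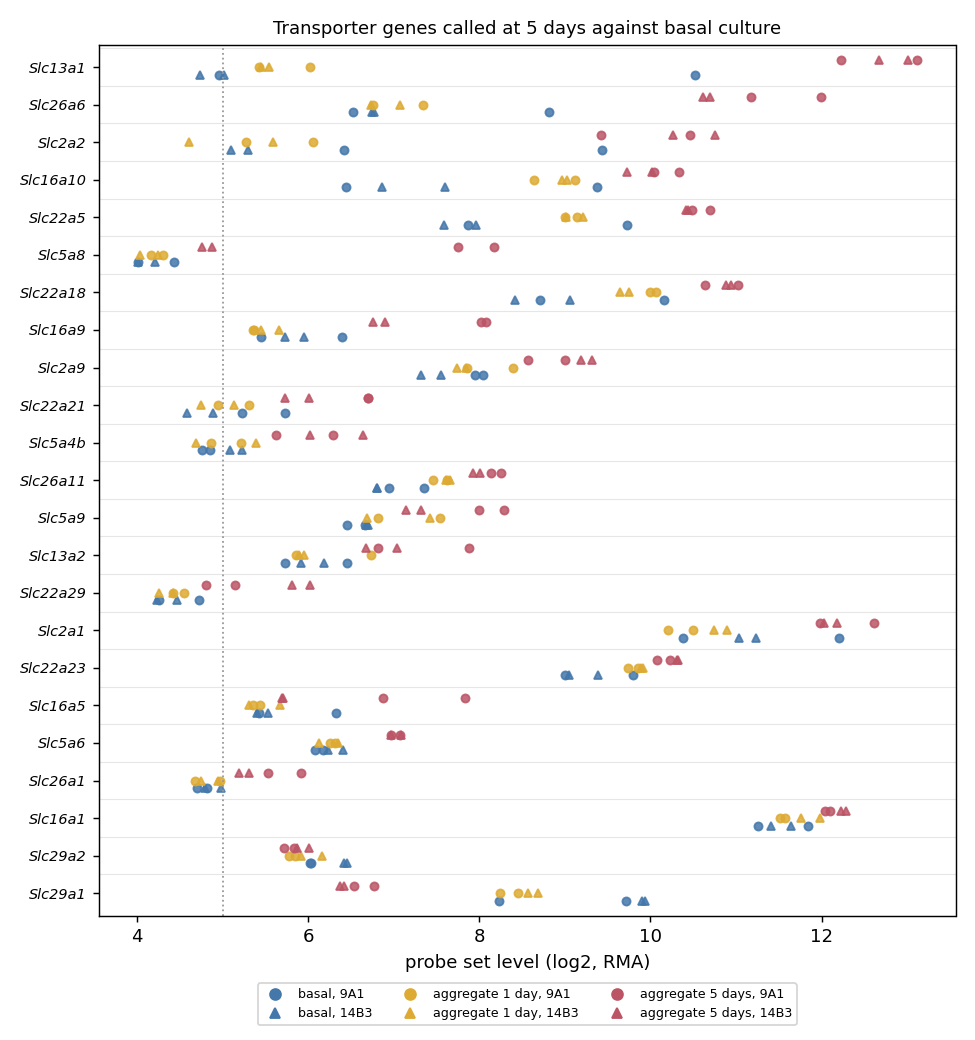
Probe set levels (log2, RMA) of the 23 members called at 5 days against basal culture, 1 point per array, with circles for 9A1, triangles for 14B3 and a dotted line at the level of 5 used for testing. In most members the 4 arrays at 5 days lie to the right of all basal arrays; Slc29a1 and Slc29a2 lie to the left, and in Slc13a1, Slc2a2 and Slc16a10 the rightmost basal point is 9A1 replicate 1.

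Among sugar carriers the largest difference was in Slc2a2 (chr3:28697903-28728361), the low affinity glucose carrier of hepatocytes and of intestinal epithelium. Its levels were 9.43, 6.42, 5.09 and 5.29 in basal culture, 6.06, 5.28, 5.58 and 4.61 at 1 day and 10.47, 9.42, 10.76 and 10.26 at 5 days. All 4 arrays at 5 days were above every 1 day array, but basal 9A1 replicate 1 lay within their range. The rise against basal culture was 3.67 ± 0.59 (adjusted p = 0.00137), a 12.7-fold difference, and it was 4.42 without basal 9A1 replicate 1 and 2.91 without basal 9A1 replicate 2. Slc2a1 (chr4:119108745-119137330), the widely expressed glucose carrier of proliferating cells and of barriers, had levels of 12.21, 10.38, 11.03 and 11.24 in basal culture, 10.50, 10.21, 10.90 and 10.74 at 1 day and 11.98, 12.61, 12.18 and 12.03 at 5 days. Its 5 day arrays were higher than all 1 day arrays, again with basal 9A1 replicate 1 inside their range. The rise against basal culture, 0.99 ± 0.34 (adjusted p = 0.048), was near the threshold and was lost when any array other than basal 9A1 replicates 1 and 2 was left out, with an adjusted p of up to 0.160. It was 1.44 without basal 9A1 replicate 1 and 0.53 without replicate 2, both still called. Its 3 probe sets gave 0.99 to 1.10, none called when probe sets were adjusted on their own (adjusted p up to 0.0566). Against 1 day culture the rise of Slc2a1 was 1.62 ± 0.34 (adjusted p = 0.00968), with no overlap.

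Slc2a9, a urate carrier of liver and kidney, was at 8.04, 7.94, 7.55 and 7.32 in basal culture and 8.57, 9.00, 9.19 and 9.32 at 5 days, a rise of 1.31 ± 0.17 (adjusted p = 0.000473) without overlap. A dimmer probe set for the same gene gave 0.15 and was not called. The other 8 tested Slc2a genes differed by between 0.00 and 0.39 at 5 days and were not called, Slc2a8, an intracellular hexose carrier, being the nearest to the threshold at 0.38 ± 0.15 (adjusted p = 0.0787). The fructose carrier Slc2a5 ran from 6.40 to 6.74 in basal culture and from 6.46 to 6.96 at 5 days, so its ranges overlapped.

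The sodium-coupled sugar and vitamin carriers of the Slc5a family had 4 risen members. Slc5a9, known to carry mannose and fructose in intestine and kidney, had levels of 6.66, 6.46, 6.70 and 6.68 in basal culture and 8.0, 8.28, 7.32 and 7.14 at 5 days and rose by 1.06 ± 0.21 (adjusted p = 0.00424). All 4 of its probe sets rose, by between 1.06 and 2.58, the smallest value belonging to the brightest one. Slc5a4b, a relative of the intestinal sodium glucose carrier, read 4.76, 4.86, 5.08 and 5.23 in basal culture and 5.63, 6.29, 6.02 and 6.64 at 5 days, a rise of 1.16 ± 0.22 (adjusted p = 0.00312). Slc5a6 takes up biotin, pantothenate and lipoate. At 6.17, 6.08, 6.41 and 6.24 in basal culture and 6.96, 7.08, 6.97 and 7.08 at 5 days it rose by 0.80 ± 0.12 (adjusted p = 0.000883), and its 4 arrays at 5 days lay within 0.12 of each other and above all others. The intestinal glucose carrier Slc5a1 was not called (0.27 ± 0.15, adjusted p = 0.212), although its 5 day arrays, 5.45 to 5.65, were all above the basal ones, 5.15 to 5.42. Slc5a3, which imports myo-inositol and is controlled by tonicity in many cells, had the highest mean of its family on the array scale and levels of 8.92, 10.75, 9.55 and 9.58 in basal culture and 9.96, 8.39, 8.92 and 8.60 at 5 days, with a difference of -0.73 ± 0.47 (adjusted p = 0.291) that was not called and overlapping ranges.

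Genes that act on the carried sugars were taken from lists of partners. Of 7 tested genes for hexose trapping and use, 3 rose at 5 days: G6pc, the glucose 6-phosphatase that frees glucose in liver, by 4.33, its endoplasmic reticulum carrier Slc37a4 by 2.09, and the fructose kinase Khk by 1.60. The hexokinase genes Hk1, Hk2 and Hk3 had differences of 0.44, 0.00 and 0.09 and were not called. Of 6 genes for sugar sensing and glucose carrier control 4 rose, among them the glucose-responsive transcription factor Mlxipl (3.71) and the arrestin-like genes Arrdc4 (1.82) and Txnip (1.74), which mark glucose carriers for internalisation. For urate, Xdh, whose enzyme makes it, rose by 3.91, as 1 of 2 tested genes. For myo-inositol 1 of 2 genes rose, Impa1 by 0.63. These lists, like all partner lists here, give counts with no test of the list and were chosen with earlier results of these data known. Over all 81 tested partner genes 47 rose and 7 fell at 5 days with a median of 0.72. Of all genes tested 16.9% were called higher and 18.5% lower at 5 days, with a median of 0.01.

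**Figure D2:**
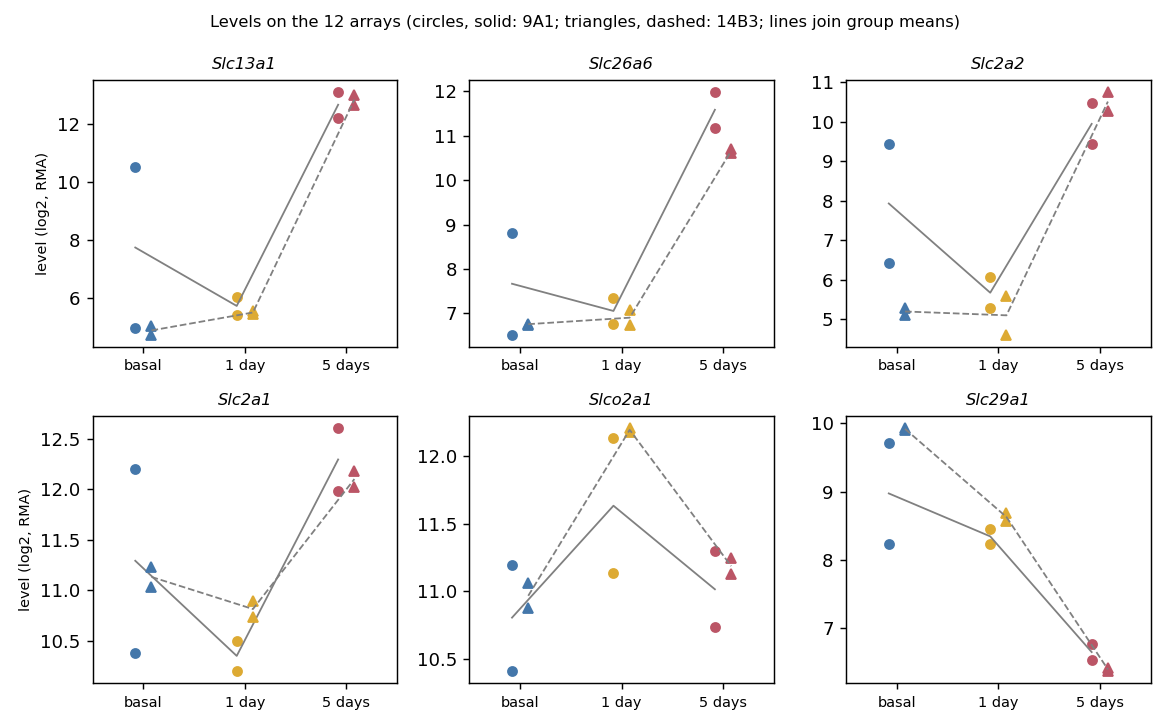
Probe set levels (log2, RMA) in basal culture and after 1 and 5 days as aggregates, 1 panel per member, with a point for each array and a line through the mean of each line's 2 replicates. Slc13a1, Slc26a6 and Slc2a2 are not called at 1 day and rise to 5 days, Slc29a1 falls at both steps, and Slco2a1 is highest at 1 day.

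Among anion carriers were the members with the largest changes, Slc13a1 and Slc26a6. Slc13a1 (chr6:24088283-24168119), the sodium sulfate cotransporter of the brush border in kidney and intestine, was at 10.52, 4.95, 5.02 and 4.73 in basal culture, 5.43, 6.02, 5.54 and 5.45 at 1 day and 12.22, 13.11, 13.02 and 12.67 at 5 days. Apart from basal 9A1 replicate 1 the basal arrays lay at or below 5.02, and all 5 day arrays lay above 12. The rise of 6.45 ± 0.95 (adjusted p = 0.000914) became 7.84 without basal 9A1 replicate 1 and 5.06 without replicate 2. No fold is given, as most basal arrays lay near or below the level used for testing. A second, dimmer probe set rose by 2.14. Slc13a2, the sodium dicarboxylate cotransporter for citrate and succinate, had levels of 6.45, 5.73, 5.92 and 6.19 in basal culture and 6.82, 7.88, 6.68 and 7.04 at 5 days. Its rise of 1.03 ± 0.29 (adjusted p = 0.02) was lost in 4 fits that left out 1 array, namely replicate 2 of 9A1 or replicate 1 of 14B3 in basal culture, or replicate 2 of either line at 5 days, with an adjusted p of up to 0.0737. The citrate carrier Slc13a5, known from adult liver, had a difference of 0.00 ± 0.24 and was not called.

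Slc26a6 (chr9:108854043-108913049) exchanges chloride for oxalate, bicarbonate or formate at the apical face of intestine, pancreatic duct and kidney tubule. It was at 8.81, 6.52, 6.77 and 6.74 in basal culture, 6.76, 7.35, 6.73 and 7.07 at 1 day and 11.18, 11.99, 10.70 and 10.61 at 5 days. The rise was 3.91 ± 0.43 (adjusted p = 0.000239), 15-fold, and the ranges did not overlap, with basal 9A1 replicate 1 between them. Slc26a11, an anion carrier described as a sulfate carrier, rose in small steps. It read 7.35, 6.95, 6.80 and 6.80 in basal culture, 7.62, 7.46, 7.66 and 7.61 at 1 day and 8.14, 8.25, 7.93 and 8.01 at 5 days, and rose at 5 days by 1.11 ± 0.13 (adjusted p = 0.000369). Slc26a1, the basolateral sulfate and oxalate exchanger of hepatocytes, was near the limit used for testing, at 4.82, 4.70, 4.80 and 4.98 in basal culture and 5.91, 5.53, 5.20 and 5.31 at 5 days, and rose by 0.66 ± 0.12 (adjusted p = 0.00307). Only its arrays of the 5 day culture reached that limit, so it entered the test through the culture in which it was high. The chondrocyte and widely expressed sulfate carrier Slc26a2 had the highest mean of its family on the array scale. It was at 11.36, 10.95, 10.59 and 11.05 in basal culture, 11.88, 11.26, 11.35 and 11.38 at 1 day and 11.11, 10.03, 10.78 and 10.60 at 5 days. It was not called at 5 days against basal culture (-0.36 ± 0.25, adjusted p = 0.335) but fell by 0.84 from 1 to 5 days (adjusted p = 0.0409), with 5 day arrays all below the 1 day arrays.

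Among 4 tested genes of sulfate activation and use, 2 rose at 5 days: Papss2, which makes the active sulfate donor, by 3.16, and the sulfotransferase Sult1b1 by 5.83. Of 6 PDZ scaffold and apical partner genes 4 rose and 1 fell. Of all genes tested 16.9% were called higher and 18.5% lower at 5 days. The chloride channel Cftr, which works with Slc26a exchangers in ducts, rose by 3.26, and the scaffolds Slc9a3r1 and Pdzk1, which hold carriers in microvilli, rose by 1.51 and 1.49. The related scaffold Slc9a3r2 fell by 1.41.

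Of the monocarboxylate family Slc16a, 4 of 12 tested members rose. Slc16a10 (chr10:40033532-40142270), which carries aromatic amino acids and thyroid hormone out of epithelial cells, was at 9.38, 6.44, 6.87 and 7.59 in basal culture, 8.64, 9.12, 9.02 and 8.97 at 1 day and 10.04, 10.34, 9.73 and 10.01 at 5 days. The 5 day arrays were above all others, with basal 9A1 replicate 1 above the 1 day arrays. The rise of 2.46 ± 0.52 (adjusted p = 0.00574) became 3.20 without basal 9A1 replicate 1 and 1.73 without replicate 2. A second probe set rose by 2.81, while a pair of dim ones gave 0.19 and 0.11 and was not called. Slc16a9, linked to carnitine and creatine efflux, had levels of 6.39, 5.45, 5.95 and 5.73 in basal culture, 5.36, 5.36, 5.45 and 5.66 at 1 day and 8.08, 8.02, 6.76 and 6.90 at 5 days. Its arrays at 5 days were all the highest, and it rose by 1.55 ± 0.19 (adjusted p = 0.000422). Slc16a1, the main lactate and ketone body carrier, was high throughout on the array scale, at 11.84, 11.26, 11.41 and 11.64 in basal culture and 12.03, 12.10, 12.23 and 12.28 at 5 days. It rose by 0.62 ± 0.13 (adjusted p = 0.00582) with no overlap. Slc16a5, an orphan member known to carry the diuretic bumetanide, was at 6.33, 5.42, 5.53 and 5.40 in basal culture and 6.87, 7.84, 5.71 and 5.69 at 5 days. Its 14B3 arrays at 5 days lay below basal 9A1 replicate 1, and the rise of 0.86 ± 0.25 (adjusted p = 0.0235) was lost without replicate 2 of 9A1 or either 14B3 array, in basal culture as at 5 days (adjusted p up to 0.0787), with the mean of the gene's probe sets, and within each line fitted alone. A second probe set gave 0.07 and was not called.

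The creatine carrier Slc16a12 varied most among members that were not called. It was at 7.13, 5.93, 4.79 and 5.34 in basal culture, 7.17, 5.16, 7.41 and 6.43 at 1 day and 9.13, 6.18, 7.26 and 6.93 at 5 days, and its difference at 5 days was 1.58 ± 0.66 (adjusted p = 0.0989). Replicates of 9A1 differed by more than 1 unit in every culture. The hypoxia-responsive lactate exporter Slc16a3 was not called (-0.30 ± 0.29, adjusted p = 0.529). Bsg, the chaperone that brings Slc16a1 to the membrane, rose by 0.51, while Emb, the other tested chaperone, gave -0.80 and was not called. Of 4 tested genes of lactate and ketone metabolism 3 rose at 5 days, where 16.9% of all genes tested did. They were Bdh1, a ketone body enzyme, by 4.63, Oxct1, which uses ketone bodies, by 1.03, and the lactate dehydrogenase gene Ldha by 0.58.

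The Slc22a family of organic ion carriers had 5 risen members of 18 tested. Slc22a5 (chr11:53864542-53891796), the sodium-dependent carnitine carrier, was at 9.73, 7.87, 7.59 and 7.97 in basal culture, 9.00, 9.15, 9.21 and 9.02 at 1 day and 10.49, 10.70, 10.44 and 10.42 at 5 days. Its 5 day arrays were the highest, and its 1 day arrays were above every basal array but 9A1 replicate 1. It rose by 2.22 ± 0.34 (adjusted p = 0.00104) at 5 days, and a second probe set rose by 2.05. Slc22a21, its close mouse relative and also a carnitine carrier, had levels of 5.72, 5.22, 4.89 and 4.58 in basal culture and 6.70, 6.70, 5.73 and 6.01 at 5 days and rose by 1.18 ± 0.17 (adjusted p = 0.00072), with one 14B3 array of 5 days only just above the highest basal array. Slc22a18, an imprinted gene of the distal chromosome 7 cluster with a substrate that is not settled, had levels of 10.15, 8.71, 8.42 and 9.06 in basal culture, 9.99, 10.07, 9.64 and 9.75 at 1 day and 10.64, 11.03, 10.94 and 10.88 at 5 days. It rose by 1.79 ± 0.29 (adjusted p = 0.00144), and no basal array reached the 5 day arrays. The orphan carrier Slc22a23 was at 9.79, 9.00, 9.05 and 9.39 in basal culture and 10.22, 10.07, 10.31 and 10.33 at 5 days, a rise of 0.92 ± 0.18 (adjusted p = 0.00339). Slc22a29, one of a cluster of closely related rodent anion carriers whose probes may be shared, was at 4.72, 4.26, 4.24 and 4.47 in basal culture and 5.14, 4.80, 6.02 and 5.81 at 5 days, a rise of 1.02 ± 0.14 (adjusted p = 0.000608). Slc22a29 entered the test only through arrays of the 5 day culture, in which it was high.

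The other 13 tested Slc22a members differed by between -0.22 and 0.58 at 5 days and were not called. They include Slc22a7, an organic anion carrier of adult liver (0.10 ± 0.17, adjusted p = 0.751). Slc22a4, the ergothioneine carrier, was scattered: 7.55, 4.91, 6.82 and 7.04 in basal culture, 4.86, 6.85, 7.26 and 6.75 at 1 day and 6.14, 6.36, 7.87 and 8.29 at 5 days. Of 7 genes of carnitine and choline use 5 rose and 1 fell at 5 days, where 16.9% and 18.5% of all genes tested did. At 1 day 4 rose, where 5.25% of all genes tested did. Cpt2 and Crat, enzymes that move acyl groups on and off carnitine, rose at 5 days by 1.78 and 1.68, and Bbox1, which makes carnitine, by 1.14. Pemt, a choline-making enzyme of hepatocytes, fell by 0.55.

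Of the 4 equilibrative nucleoside carriers 2 fell at 5 days. Slc29a1 (chr17:45585200-45599618), the main equilibrative nucleoside carrier of the plasma membrane, was at 8.23, 9.71, 9.93 and 9.90 in basal culture, 8.45, 8.24, 8.57 and 8.68 at 1 day and 6.77, 6.53, 6.38 and 6.42 at 5 days. The 5 day arrays lay below all others, and basal 9A1 replicate 1 lay at the level of the 1 day arrays. It fell by 2.92 ± 0.27 (adjusted p = 0.00011), 7.57-fold. Slc29a2, the second plasma membrane carrier, was at 6.03, 6.04, 6.42 and 6.46 in basal culture and 5.72, 5.83, 5.87 and 6.01 at 5 days. Its fall by 0.38 (adjusted p = 0.0245) was lost in each of the 8 fits that left out 1 array of basal or 5 day culture (adjusted p up to 0.109) and with each array centred on its median, and a second probe set was not called. Slc29a3, the lysosomal carrier, was at 7.97, 8.77, 8.2 and 8.53 in basal culture, 8.78, 8.60, 9.02 and 8.83 at 1 day and 8.06, 7.49, 8.06 and 8.09 at 5 days. It was not called against basal culture (-0.44 ± 0.21, adjusted p = 0.141) but fell by 0.88 from 1 to 5 days (adjusted p = 0.0162), where a second, dimmer probe set gave -0.18 and was not called. The only sodium-coupled nucleoside carrier measured, Slc28a3, ran between 4.83 and 5.77 and was not called (0.35 ± 0.22, adjusted p = 0.277).

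Of 12 genes of nucleoside salvage and breakdown 4 rose and 3 fell at 5 days, where 16.9% and 18.5% of all genes tested did. The kinases of Tk1 and Uck2 trap imported thymidine and uridine: Tk1 fell by 3.27 and Uck2 fell by 1.70. Dck, which acts on deoxycytidine, fell by 1.50. Cytidine deaminase Cda and the phosphorylase Pnp, which break nucleosides down, rose by 1.87 and 1.26. Already at 1 day 4 of the 12 were lower and 0 higher, where 8.80% and 5.25% of all genes tested were. Tk1 fell by 2.54, Dck fell by 1.90, Cda fell by 1.20 and Uck2 fell by 1.04.

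**Figure D3:**
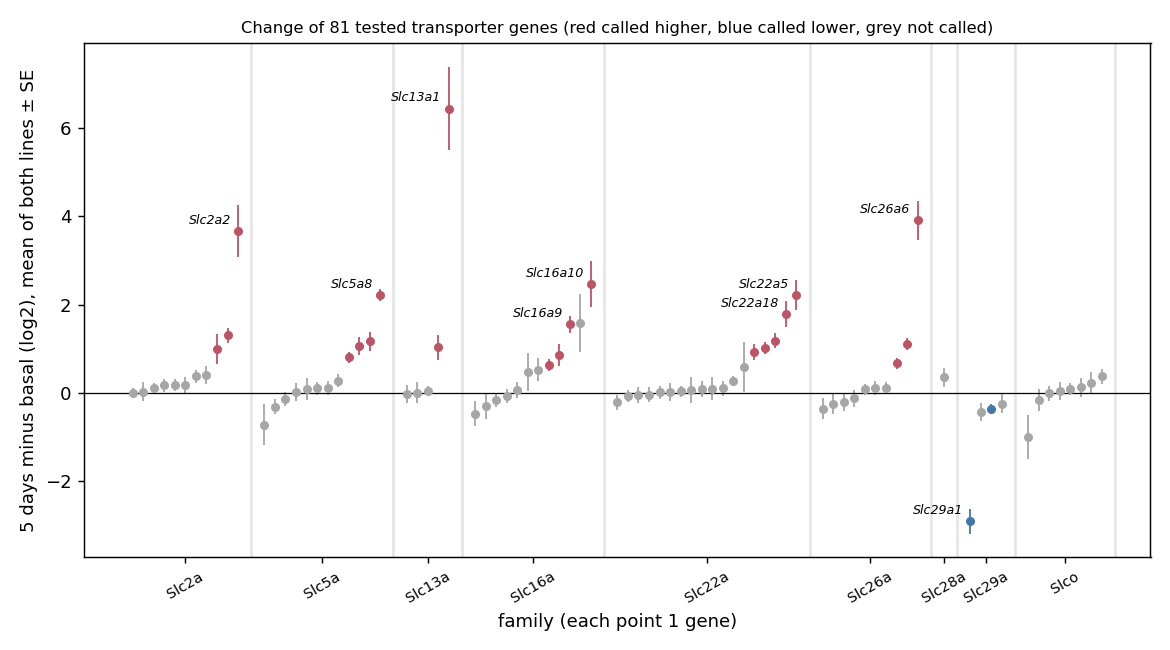
Difference of each tested member (log2, mean of both lines, with the standard error) at 5 days against basal culture, grouped by family. Red points were called higher, blue points called lower and grey points not called. The largest called rises at 5 days are in Slc13a, Slc26a and Slc2a, Slc29a holds the only called falls, and no Slco member is called at 5 days.

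The second question was how much had already changed after 1 day. Against basal culture 3 of 81 tested members were called, 3.70%, where 14.0% of all genes tested were called, 5.25% higher and 8.80% lower. The prostaglandin carrier Slco2a1 (chr9:103007061-103096002), which clears prostaglandins from outside the cell, was at 11.20, 10.42, 11.06 and 10.87 in basal culture, 11.14, 12.13, 12.21 and 12.18 at 1 day and 11.30, 10.73, 11.24 and 11.13 at 5 days. All 1 day arrays except 9A1 replicate 1 were above every other array. It rose by 1.02 ± 0.25 (adjusted p = 0.0255) at 1 day, its 4 probe sets all rose by between 1.02 and 1.94, and from 1 to 5 days it fell by 0.81 (adjusted p = 0.0446), with a pair of its 4 probe sets not called there. Slc26a11 rose by 0.61 ± 0.13 (adjusted p = 0.0178) with no overlap, and Slc29a1 fell by 0.96 (adjusted p = 0.0484), with -1.33 when basal 9A1 replicate 1 was left out and -0.59 when replicate 2 was. Of the 81 members, 2 had 1 day arrays all above the basal arrays and 0 all below, where 5.37% and 8.90% of all genes tested did.

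The calls of Slco2a1 and Slc26a11 were lost without any 14B3 array of basal or 1 day culture, and that of Slco2a1 also without basal 9A1 replicate 2 (adjusted p up to 0.0913 and 0.082). That of Slc29a1 was kept only without basal 9A1 replicate 1 or 2 or day 1 9A1 replicate 1 (adjusted p otherwise up to 0.148). The count fell without any 14B3 array of basal or 1 day culture, and so did the number of all genes called. It rose without basal 9A1 replicate 1 or 2 or day 1 9A1 replicate 1. The number of all genes called rose as well without basal 9A1 replicate 1 or day 1 9A1 replicate 1, but not without basal 9A1 replicate 2. Each of these fits leaves 1 array in a group. The direction of the called members moved as well: without basal 9A1 replicate 2 most were lower, and without day 1 9A1 replicate 1 most were higher. A pair of genes around prostaglandins went apart at 5 days: Ptgs2, the inducible enzyme that makes them, fell by 3.67, and Hpgd, which breaks them down, rose by 1.77. Ptgs2 was already lower at 1 day, where it fell by 1.88.

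From 1 to 5 days 18 of 81 members rose and 5 fell, 28.4%, where 21.7% of all genes tested were called, 11.7% higher and the other 1582 genes lower. Of the members 22.2% rose and 6.17% fell. The balance of rises and falls was not stable, since without day 1 9A1 replicate 1 more members were called lower than higher. This comparison and the one against basal culture share the 5 day arrays. The rises were led by Slc13a1 (7.15 ± 0.95, adjusted p = 0.00129), Slc2a2 (4.85 ± 0.59, adjusted p = 0.000896) and Slc26a6 (4.14 ± 0.43, adjusted p = 0.000494), followed by Slc5a8, Slc16a9, Slc2a1, Slc22a5, Slc22a21, Slc5a4b and Slc16a5 with rises from 2.20 down to 1.08. For these 3 leading carriers the difference at 1 day against basal culture was -0.70 ± 0.95 (adjusted p = 0.72), -1.18 ± 0.59 (adjusted p = 0.244) and -0.23 ± 0.43 (adjusted p = 0.801), none of them called. The falls were in Slc29a1, Slc29a3, Slc26a2, Slco2a1 and Slc22a17. Slc22a17, which binds the siderophore carrier lipocalin, had levels of 7.62, 7.86, 7.89 and 7.93 in basal culture, 8.21, 8.42, 7.95 and 8.29 at 1 day and 7.74, 7.73, 7.84 and 7.71 at 5 days, so that its 1 day arrays were all the highest. It fell by 0.46 (adjusted p = 0.0413). Calls of Slc22a5, Slc16a5, Slc22a18, Slc13a2, Slc26a11, Slc16a1, Slc29a3, Slc26a2, Slco2a1 and Slc22a17 in this comparison were all lost without day 1 14B3 replicate 1 or either 14B3 array at 5 days, with an adjusted p of up to 0.162 in any fit without 1 array. All of them but Slc16a5 were also lost without day 5 9A1 replicate 2 or, for Slc22a18, Slc26a11, Slc22a17 and Slc16a1, either 9A1 array at 5 days. Both basal 14B3 arrays, day 1 14B3 replicate 2 and, for some, a 1 day 9A1 array had the same effect on Slc13a2, Slc26a11, Slc16a1, Slc26a2, Slco2a1 and Slc22a17, and day 1 14B3 replicate 2 on Slc22a5, and the 1 day 9A1 arrays and day 1 14B3 replicate 2 on Slc22a18. The count was 13 without day 1 14B3 replicate 1, day 5 9A1 replicate 2 or either 14B3 array at 5 days.

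Of the Slco family, 8 of 15 members could be tested, and at 5 days they differed from basal culture by between -1.01 and 0.37 with none called and a smallest adjusted p of 0.118. Slco3a1, a prostaglandin and thyroid hormone carrier, gave the lowest value. It was at 6.68, 9.24, 7.40 and 7.76 in basal culture and 7.40, 6.68, 6.50 and 6.48 at 5 days, with basal 9A1 replicate 2 the highest of all. Slco1a1 and Slco1a4, bile acid and steroid conjugate carriers of adult mouse liver, gave 0.12 ± 0.21 (adjusted p = 0.76) and -0.17 ± 0.25 (adjusted p = 0.691). Slco4a1, a thyroid hormone carrier, had 5 day arrays of 7.22 to 7.72 above basal arrays of 6.90 to 7.16 but was not called (0.37 ± 0.17, adjusted p = 0.118).

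By ranges alone, 21 of 81 tested members had 5 day arrays all above the basal arrays and 3 all below, where 18.5% and 20.3% of all genes tested did. Slc2a12, Slc5a1 and Slco4a1 were separated upwards and Slc26a4 downwards without being called, whereas Slc2a2, Slc2a1 and Slc16a5 were called with overlap. Basal 9A1 replicate 1 was the highest basal array for 16 of the 21 risen members, the exceptions being Slc26a1, Slc5a4b, Slc5a6, Slc5a8 and Slc5a9, and the lowest for both fallen members. It was the highest basal array for 34 of the 81 members tested, 42.0%, and for 31.2% of all genes tested. Without day 1 9A1 replicate 2 alone 3 members were called at 1 day and 24 between 1 and 5 days. Slco2a1 then stood at 0.78 and Slc26a11 at 0.65 at 1 day, both called, while Slc29a1 at 1 day (-0.91) and Slc22a18 (1.03) and Slco2a1 (-0.56) between 1 and 5 days were not called. Both doubted arrays, basal 9A1 replicate 1 and day 1 9A1 replicate 2, were also left out together, an omission chosen after the data were seen. It leaves 1 array in basal 9A1 and 1 in day 1 9A1. More members were then called in each comparison of cultures. More of all genes tested were called too, so the shift was not particular to the carriers.

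The last question was whether the 2 lines differed. Averaged over the cultures 1 of 81 members was called, where 0.272% of all genes tested were. At 5 days 1 was called, where 0.247% were, 0.222% higher and 0.0253% lower in 9A1. In basal culture 0 were called by limma, where 0.0190% were, with 5 at an unadjusted p under 0.05, and at 1 day 0 were called, where 0% were, with 3 at that p. The difference between the lines in the response at 5 days was called for 1 member, where 0.0380% were, and that at 1 day for 0, where 0% were and 0 members had an unadjusted p under 0.05. Single arrays of 9A1 moved these counts in fits that leave 1 array in a group. Without basal 9A1 replicate 2 more members were called over all cultures, in basal culture, at 5 days and in both responses. Without basal 9A1 replicate 1 more were called at 5 days. Without day 1 9A1 replicate 1 more were called over all cultures, at 1 day and in the response at 1 day. In each of these cases more of all genes tested were called too, so the moves were not particular to the carriers.

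In every case the called member was Slc5a8 (chr10:88885992-88929515), the sodium-coupled carrier of lactate, short chain fatty acids and ketone bodies. It was at 4.01, 4.44, 4.21 and 4.01 in basal culture, 4.30, 4.16, 4.03 and 4.25 at 1 day and 7.76, 8.17, 4.88 and 4.75 at 5 days. Both 9A1 arrays at 5 days stood far above all 10 others, and both 14B3 arrays at 5 days were next but stayed below 5. Slc5a8 entered the test only through the 2 arrays of 9A1 at 5 days, the group in which it was high, and as the 14B3 levels lie below the level used for testing no fold is given. In 9A1 the log2 level was higher than in 14B3 at 5 days by 3.15 ± 0.20 (adjusted p = 0.000409) and over all cultures by 1.12 ± 0.11 (adjusted p = 0.0122). Its difference between 5 days and basal culture was 3.74 in 9A1 and 0.71 in 14B3, and the difference of these was 3.03 ± 0.28 (adjusted p = 0.00852). With either 9A1 array of 5 days left out Slc5a8 no longer reached 5 on 2 arrays and was not tested. The call at 5 days was kept with any of the other 10 arrays left out. The call over all cultures was lost without any 14B3 array other than day 1 replicate 2 (adjusted p up to 0.0827), and that of the response was lost without either replicate of 14B3 in basal culture or at 5 days (adjusted p up to 0.10) and when only the groups compared were fitted.

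**Figure D4:**
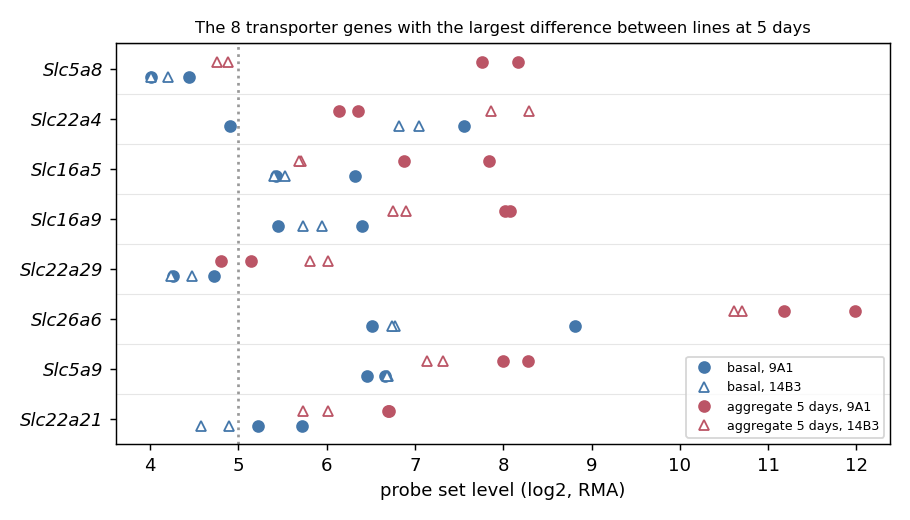
Probe set levels (log2, RMA) of the 8 members with the largest difference between the lines at 5 days, 1 point per array in basal culture and at 5 days. Filled circles are 9A1, open triangles are 14B3, and a dotted line marks the level of 5 used for testing. Slc5a8, the only called member, has a mean at 5 days of 7.96 in 9A1 and 4.82 in 14B3.

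Other members differed between the lines at 5 days without being called. Slc5a9 was higher in 9A1 by 0.91 ± 0.30 (adjusted p = 0.638). With every probe set on its own in limma, its dimmest one was called higher in 9A1 over all cultures (0.82 ± 0.12, adjusted p = 0.0407). That probe set had a mean of 3.89 in basal culture and 6.47 at 5 days. Slc16a5 was higher in 9A1 by 1.66 ± 0.35 (adjusted p = 0.176) and Slc16a9 by 1.22 ± 0.27 (adjusted p = 0.228), in both cases with both 9A1 arrays above both 14B3 arrays. Slc22a29 was lower in 9A1, with a difference of -0.95 ± 0.19 (adjusted p = 0.162), and Slc22a4 gave -1.83 ± 0.81 (adjusted p = 1.00). In basal culture the largest differences were in Slc13a1 (2.86 ± 1.34, adjusted p = 0.757) and Slc2a2 (2.74 ± 0.83, adjusted p = 0.642), where 9A1 replicate 1 was the highest array; replicate 2 lay among the 14B3 arrays for Slc13a1 and above both of them for Slc2a2, and at 1 day in Slc22a4 (-1.15 ± 0.81, adjusted p = 0.852). All 23 members called at 5 days against basal culture had the same sign in each line, which calling on the mean of the lines favours.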

How the data were processed

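The authors deposited log2 probe set levels for 12 arrays. Per the submitters' processing notes they used RMA and R 2.3.1. RMA removes background, gives every array the same distribution of probe values and combines the probes of a set, so a change in total RNA per cell is not seen, and no detection calls are used here. Of 45101 probe sets 34945 were listed for 1 gene; 932 with several genes, 9160 with none and 64 controls were left out, and 0 columns of values were unmapped. All 94 members matched the RefSeq table of assembly GRCm38 by Entrez identifier, and 48 had several probe sets. The test took genes that reached 5 on 2 or more arrays.

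One linear model with 6 group means was fitted to all genes with limma 3.58.1 in R 4.3.3, with empirical Bayes moderation and a variance trend, and 9 contrasts were adjusted by Benjamini-Hochberg over 15781 genes. The code was tested on simulated data. Named are the called members with the largest changes in each comparison (up to 10 each way between cultures and 8 between lines), the member with the highest mean in each family, and the 3 called partners that changed most per list with 1 against them. Slc5a9, Slc5a6, Slc26a1, Slc22a23, Slc22a29, Slc13a2 and members given as not called were added to these after their values were seen. Members, partner lists, markers and motifs were chosen with earlier results of these data known. The alternatives were other filters, probe set means, every probe set, array weights, median centring, robust moderation, quantile normalisation, no trend, a replicate block, only the groups compared, each line alone, stricter calls and leaving out arrays.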

Additional observations from a re-analysis of the deposited data

Results flagged for a closer look

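Within the 4 arrays of a culture, 1 array stood apart by Dixon's criterion in 8 of 81 groups examined (27 members called anywhere, 3 cultures each), and chance alone gives about 1 in 20. On basal 9A1 replicate 1 this held for 4 members: Slc13a1 was at 10.52, Slc26a6 at 8.81 and Slc16a5 at 6.33, each the highest of the basal arrays, and Slc29a1 was at 8.23, the lowest. The hepatocyte and gut marker means of that array were 12.1 and 9.92. On other arrays, Slc5a9 was lowest at 6.46 on basal 9A1 replicate 2, Slc13a2 highest at 6.74 on day 1 9A1 replicate 2, Slco2a1 lowest at 11.14 on day 1 9A1 replicate 1 and Slc29a3 lowest at 7.49 on day 5 9A1 replicate 2. All 8 were arrays of 9A1. The response of Slc5a8 to 5 days of aggregate culture was larger in 9A1 than in 14B3 by 3.03 ± 0.28 in the interaction term of limma (adjusted p = 0.00852). Slc5a8 entered the test only through the 2 arrays of 9A1 at 5 days, the group in which it was high. This call was lost without either replicate of 14B3 in basal culture or at 5 days.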

How the results depend on the processing

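Of 52 called differences, 33 kept their call in every fit without 1 array in which they were tested (Slc5a8 was not tested without either 9A1 array of 5 days), 19 lost it without at least 1 array, and 0 turned sign under any setting run. The count of members called at 1 day against basal culture (3) became 5 with the mean of probe sets, 1 with array weights, 1 with a 2-fold minimum, 16 in 14B3 alone and 0 in 9A1 alone (0 at an unadjusted p under 0.05), 0 with only the groups compared (7 at that p), 0 at an adjusted p under 0.01 and 11 without basal 9A1 replicate 1 and day 1 9A1 replicate 2 together; leaving out 1 array gave 0 to 17. The count at 5 days (23) became 2 in 9A1 alone, and 19 to 29 without 1 array. Between 1 and 5 days (23) it became 13 at an adjusted p under 0.01, 14 with a 2-fold minimum and 1 in 9A1 alone, and 13 to 34 without 1 array.

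Between the lines, the count over all cultures (1) became 0 at an adjusted p under 0.01, 8 without those arrays together and 2 members with every probe set on its own, and 0 to 10 without 1 array. In basal culture (0) it became 2 without those arrays together and 0 to 10 without 1 array, and at 1 day (0) 4 and 0 to 13. At 5 days (1) it became 2 with the mean of probe sets, 9 with array weights, 3 with only the groups compared, 6 without those arrays together and 2 with every probe set on its own, and 0 to 2 without 1 array. The response at 1 day (0) gave 0 to 6 without 1 array, and that at 5 days (1) gave 0 with only the groups compared, 2 without those arrays together and 0 to 8 without 1 array. Of the 15781 genes tested, fits of 14B3 alone called 5672 at 1 day and 7652 at 5 days against basal culture. Fits of 9A1 alone called 0 and 277. Between 1 and 5 days 5610 were called in 14B3 alone and 31 in 9A1 alone. Over these genes the difference between replicates had an SD of 0.90 in basal 9A1 and 0.25 in basal 14B3. At 1 day the SDs were 0.78 and 0.30, and at 5 days 0.40 and 0.20. The number of all genes called shifted between these settings as well, and the causes of the shifts in counts were not tested. Precision is limited by 2 arrays per group, and signal over background was not used here, so levels near 5 carry no detection call.

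Replicate numbers were not used as pairs. Deviations of same-numbered arrays correlated above 0.1 in 5 of 15 pairs of groups, with r from -0.30 to 0.50. The highest r was between day 1 9A1 and day 1 14B3, followed by day 1 9A1 with day 5 9A1 (0.38) and day 1 14B3 with day 5 9A1 (0.29). What same-numbered arrays share was not tested. With the replicate number as a block, 23 members were called at 5 days against basal culture, 22 of them the same, and 20 between 1 and 5 days. The calls of Slc2a1 at 5 days, Slc29a1 at 1 day, and Slc22a18, Slc16a1 and Slco2a1 between 1 and 5 days were lost under the block.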

Other observations

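Carriers outside the 9 families that share their substrates also changed at 5 days against basal culture. Of 9 tested genes of bile acid and conjugate transport 6 rose and 1 fell: the canalicular conjugate pump Abcc2 by 5.67, the Slc51a and Slc51b genes of the basolateral bile acid exporter by 3.82 and 3.27, and Abcc4 fell by 1.05. For bicarbonate and the sodium gradient 2 of 7 rose, the sodium pump subunit Atp1b1 by 2.31 and the anion exchanger Slc4a2 by 0.39. All 3 thyroid hormone genes rose, the deiodinase Dio1 by 3.06 and the receptors Thrb and Thra by 1.10 and 0.96. Of 8 regulators of carrier genes 7 rose, among them the nuclear receptors Ppara by 3.13, Nr1i2 by 2.97 and Nr1h4 by 2.16. These are counts of genes called by limma over all 15781 genes, of which 16.9% were called higher and 18.5% lower at 5 days. The lists were chosen with earlier results of these data known, and no list was tested.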
